A study of Mus musculus with 11 samples.

Results

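The genes described here encode the heat shock proteins and their J-domain partners. They are the protein-coding rows of a mouse expression table whose symbols start with Hspa, Hspb, Hspd, Hspe, Hsph, Hsp90, Dnaja, Dnajb or Dnajc, without names ending in -ps. The rule gave 74 genes among 53453 rows, of which 21853 are protein coding, and 60 of the 74 reached the level needed for a test. RNA was sequenced from primary neurospheres, balls of neural stem and progenitor cells that grow in suspension, here from the brain of mouse embryos at E15.5. There were 5 libraries from Klf5 overexpression embryos and 6 from control embryos. The protocol counts as many embryos as libraries but ties no library to an embryo, so p-values measure the spread between these libraries. The labels give neither the strain or sex of the embryos nor the transgene or promoter behind the overexpression. Klf5 belongs to the Kruppel-like DNA-binding factors.

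Molecular chaperones hold or refold proteins that have lost their shape. HSP70 proteins, encoded by the Hspa genes, bind and release unfolded stretches in an ATP-driven cycle. J-domain proteins, encoded by the Dnaja, Dnajb and Dnajc genes, deliver clients and speed up ATP hydrolysis by HSP70. HSP110 (Hsph1) and other exchange factors then reset HSP70, HSP90 finishes the folding of kinases and receptors, the chaperonin pair Hspd1 and Hspe1 folds proteins inside mitochondria, and the small heat shock proteins keep unfolded proteins from clumping. A part of this set is switched on by heat shock factor when proteins unfold in the cytosol, and another part by the unfolded protein response of the endoplasmic reticulum. Many members are expressed at all times in dividing neural progenitors.

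Most chaperone genes lay near control levels with Klf5 overexpression, and the share that passed the test was near that of all tested genes. The divergent HSP70 gene Hspa12b rose strongly, and its closest relative Hspa12a and the J-domain gene Dnaja4 rose to a lesser degree. The Hspa12a and Dnaja4 calls were lost in 9 and 8 of 11 fits with a library left out. All 3 reached the level for a test, 1 TPM in 5 libraries, only through the overexpression libraries, so their count is a description. No tested member passed as lower. In counts, 3 of 60 tested members were higher and 0 were lower at an adjusted p under 0.05 (limma on log2(TPM + 1), Benjamini-Hochberg over all 13549 tested genes), where 2.29% of all tested genes were higher, 1.43% lower and 3.72% either. The groups' TPM ranges did not overlap for the same 3 members, beside 3.29% of all tested genes. At an unadjusted p under 0.05 there were 4 members, including Dnajc12, beside 12.6% of all genes. TPM is a length-adjusted share of each library's transcripts. With any 1 of the 11 libraries left out, 1 or 2 members remained called, always with Hspa12b among them. In such bulk samples, more cells of a type and more RNA per cell cannot be told apart.

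The bases before the start of the genes that rose are shown here because Klf factors and heat shock factor bind short, known letter patterns, and beside them stands Hspa1b, a classical heat-inducible HSP70 gene. Each stretch was taken from the RefSeq promoter table of build GRCm38.p6, runs 5′ to 3′ on the gene's strand and leaves out bases that GENCODE M21 places in an exon of the gene. Capitals mark the letters of a CACCC box (CCACCC or GGGTGG), a GC box (GGGCGGG or CCCGCCC) or a heat shock element (GAANNTTC or TTCNNGAA), on either strand. Hspa12b is shown at chr2:131127162-131127279 (plus strand), Hspa12a at chr19:58943673-58943922 (minus strand), Dnaja4 at chr9:54699414-54699513 (plus strand) and Hspa1b at chr17:34959239-34959488 (minus strand).
Hspa12b: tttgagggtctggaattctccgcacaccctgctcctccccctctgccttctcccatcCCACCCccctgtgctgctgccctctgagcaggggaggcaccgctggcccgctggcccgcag
Hspa12a: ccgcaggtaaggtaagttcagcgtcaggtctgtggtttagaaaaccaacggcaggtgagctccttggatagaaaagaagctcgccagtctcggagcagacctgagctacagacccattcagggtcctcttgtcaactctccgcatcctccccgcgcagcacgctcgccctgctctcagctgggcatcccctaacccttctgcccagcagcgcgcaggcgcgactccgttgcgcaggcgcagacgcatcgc
Dnaja4: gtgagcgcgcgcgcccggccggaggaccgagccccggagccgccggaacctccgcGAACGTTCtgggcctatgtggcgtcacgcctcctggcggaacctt
Hspa1b: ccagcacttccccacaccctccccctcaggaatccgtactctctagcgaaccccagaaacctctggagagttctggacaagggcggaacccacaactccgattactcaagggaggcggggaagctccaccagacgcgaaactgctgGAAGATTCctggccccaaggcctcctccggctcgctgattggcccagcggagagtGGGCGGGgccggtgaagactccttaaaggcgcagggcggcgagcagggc
The Hspa12b stretch held 1 CACCC box, the Dnaja4 stretch 1 heat shock element, the Hspa1b stretch 1 heat shock element and 1 GC box, and the Hspa12a stretch none of the 3 patterns. The stretches are trimmed, and the full windows before the RefSeq starts hold more. The Hspa12b window also has 1 GC box, the other Hspa12a window has 1 GC box, and of the 2 Dnaja4 windows 1 has 2 heat shock elements and both have 1 CACCC box. These patterns are common. Windows of 250 bases before the start were searched, 32851 RefSeq windows in all and 77 that belong to 60 of the 74 members. Heat shock element letters were in 12.8% of all windows and in 16 member windows (20.8%). GC box letters were in 23.4% of all windows and in 39 member windows (50.6%). CACCC box letters were in 28.1% and 26 (33.8%), and CCAAT or ATTGG in 33.8% and 28 (36.4%). These shares were not compared by a test. GC and CACCC boxes can overlap in runs of C. The background windows include those of noncoding genes. The Hspa12b and Dnaja4 stretches lie before RefSeq starts that are inside the GENCODE spans of these genes. The Hspa12b stretch itself ends before the span of Hspa12b. The Dnaja4 stretch, with its heat shock element, lies inside the span of Dnaja4, between exons. A match describes letters only.

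Hspa12b (ENSMUSG00000074793, chromosome 2, 131127280 to 131146321, plus strand, GRCm38) encodes an HSP70 relative with a distant ATPase domain that is known from endothelial cells. Its levels were 12.6, 20.4, 14.1, 21.3 and 11.3 TPM in the overexpression libraries, against 1.04, 0.838, 1.13, 0.705, 0.629 and 0.489 TPM in controls. The lowest overexpression library lay well above the highest control. Mean levels were 15.9 ± 4.59 TPM (n = 5, SD) for overexpression and 0.805 ± 0.246 TPM (n = 6, SD) for control libraries, a 19.8-fold ratio of means. On the log2 scale the difference was 3.20 ± 0.21 (SE; 95% interval 2.76 to 3.64), and limma gave an adjusted p of 2.21e-07. A two-sided exact permutation test of the absolute difference in mean TPM gave 0.00216, the smallest p that 5 against 6 libraries allow. Among members it was run only on called genes, and the groups do not overlap, so its p adds nothing to that. With 2 of 6 controls at 1 TPM or more, Hspa12b reached the level for a test only through the overexpression libraries. Its p-values are therefore a description. Adjusted p stayed between 5.42e-07 and 1.50e-06 when each of the 11 libraries was left out.

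Endothelial markers overlapped between groups. The summed level of 13 endothelial markers was 1.19 to 2.49 TPM in overexpression libraries and 1.15 to 2.92 TPM in controls. Egfl7 was the most abundant of them, at 1.04 TPM with overexpression and 1.26 TPM in controls, and Sox17 was at 0 in every library. Only 1 of the 13 reached the level for a test, and it did not pass (limma). Their part in the Hspa12b result was not tested. Gm11037, a gene that lies inside Hspa12b on the same strand, was listed at 1.88 and 2.95 TPM in overexpression libraries 4 and 5 and at 0 in the other 9 libraries, and reads of this pair may be shared. The 3 overexpression libraries without Gm11037 had 12.6 to 20.4 TPM of Hspa12b.

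**Figure D1:**
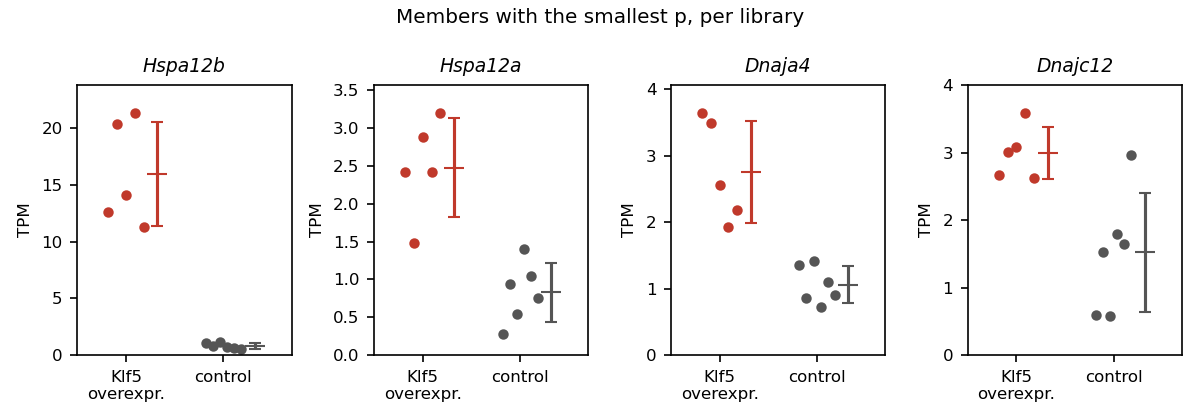
TPM of Hspa12b, Hspa12a, Dnaja4 and Dnajc12 in each of 5 Klf5 overexpression libraries (red, left) and 6 control libraries (grey, right), with the mean and SD as a bar beside the points. The groups do not overlap for Hspa12b, Hspa12a and Dnaja4, while 1 control library at 2.97 TPM lies within the overexpression range for Dnajc12.

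Hspa12a (ENSMUSG00000025092, chromosome 19, 58795750 to 58943654, minus strand), the nearest relative of Hspa12b and known from brain, had 2.42, 1.48, 2.89, 2.42 and 3.19 TPM in the overexpression libraries. Controls had 0.281, 0.940, 0.544, 1.399, 1.039 and 0.756 TPM. The groups did not overlap, although the closest libraries were 1.48 and 1.399 TPM. This gave a log2 difference of 0.94 ± 0.24 (SE, 95% interval 0.43 to 1.44, limma adjusted p = 0.0358) and an exact permutation p of 0.00216. Both p-values are a description, since Hspa12a reached the level for a test only through the overexpression libraries. The permutation p adds nothing to the lack of overlap. The limma call was narrow. It held without overexpression library 2 (adjusted p = 0.0281) and without control library 4. It was lost without overexpression library 1, 3, 4 or 5 or without control library 1, 2, 3, 5 or 6, with adjusted p up to 0.0904 and a log2 fold change of at least 0.84. Testing all genes unfiltered also ended it (adjusted p = 0.0636), as it did with a pseudocount of 0.1 (0.0639). Beside it, 9 neuron markers summed to 313 to 418 TPM in overexpression libraries and 352 to 509 TPM in controls, and their part in the result was not tested. Map2 was the most abundant of them, at 204 TPM with overexpression and 240 TPM in controls, and weighs most in these sums. None of the 9 passed in limma, and 4 had an unadjusted p under 0.05, beside 12.6% of all tested genes. With overexpression 9 of 9 were lower, beside 7800 of 13549 tested genes.

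Dnaja4 (ENSMUSG00000032285, chromosome 9, 54698873 to 54716315, plus strand), a J-domain protein of the class that resembles bacterial DnaJ most closely, had 3.64, 3.49, 2.56, 1.92 and 2.18 TPM with overexpression. Controls had 1.35, 0.852, 1.42, 0.729, 1.10 and 0.899 TPM. Every overexpression library was above every control. The log2 difference was 0.85 ± 0.22 (SE, 95% interval 0.40 to 1.31), for a limma adjusted p of 0.0361 and an exact permutation p of 0.00216. Both p-values are a description, since Dnaja4 reached the level for a test only through the overexpression libraries. The permutation p adds nothing to the lack of overlap. The limma call held without overexpression library 4 or 5 or control library 1. It was lost without overexpression library 1, 2 or 3 or control library 2, 3, 4, 5 or 6, with adjusted p up to 0.102, and also without a filter (0.0591) and with a pseudocount of 0.1 (0.0512). Wdr61, a gene that overlaps Dnaja4 on the opposite strand, averaged 44.2 TPM with overexpression and 41.4 TPM in controls (limma adjusted p = 0.913). Its reads could add to Dnaja4 if strand was not used in the counting.

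The genes that rose share a low control level. Hspa12b and Hspa12a reached 1 TPM in 2 of 6 controls and Dnaja4 in 3 of 6, so each passed the filter of 1 TPM in 5 libraries only through the overexpression libraries. The filter therefore favoured genes that are higher there, so the count of 3 and the p-values of these genes are a description. Among members the exact permutation test was run only on these 3, whose groups do not overlap, so its p adds nothing to that. Dnajc12, a co-chaperone of the enzymes that hydroxylate aromatic amino acids, came next, and with 4 of 6 controls at 1 TPM or more it passed the filter in the same way. It had 2.67, 3.01, 3.08, 3.58 and 2.62 TPM with overexpression, against 0.600, 1.53, 0.573, 1.80, 1.65 and 2.97 TPM in controls. Control library 6 reached the overexpression range. Its difference of 0.73 ± 0.25 on the log2 scale missed the threshold (limma adjusted p = 0.167).

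None of the other 9 tested HSP70 genes passed in limma or had an unadjusted p under 0.05, beside 3.72% and 12.6% of all tested genes. Hspa8, the constitutive cytosolic HSP70, had 884, 964, 861, 1144 and 958 TPM in overexpression libraries, and 793, 1049, 948, 908, 824 and 1073 TPM in controls. Both ranges cover each other almost fully, and the log2 difference was 0.047 ± 0.12 (SE; 95% interval -0.21 to 0.31). Hspa4, an HSP110-type exchange factor, averaged 137 ± 21.6 TPM in overexpression libraries (SD, n = 5), against 155 ± 13.5 TPM in control libraries (SD, n = 6), and Hsph1, the HSP110 gene, 41.2 TPM with overexpression and 35.3 TPM in controls. Hspa2, best known from male germ cells, had 5.72 to 7.60 TPM with overexpression and 3.67 to 6.34 TPM in controls (limma adjusted p = 0.455). Of 13 Hspa genes, 11 were tested, and the 9 other than Hspa12b and Hspa12a had log2 fold changes between -0.25 (Hspa9) and 0.35 (Hspa2).

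The strictly heat-inducible genes were low in both groups. Hspa1b had 0.917, 0.800, 1.73, 2.33 and 1.37 TPM with overexpression, and 1.52, 1.60, 1.17, 2.28, 2.10 and 2.21 TPM in controls (limma adjusted p = 0.822). Its near-identical copy Hspa1a, below the filter, ranged over 0.568 to 0.696 TPM with overexpression and 0.441 to 1.66 TPM in controls. Hspa1a reached 1 TPM in 0 of 5 overexpression libraries and 4 of 6 controls, so it failed the filter through its low overexpression values. In a fit without a filter its log2 fold change was -0.35 (limma unadjusted p = 0.0436, adjusted p = 0.537). Since reads can be split between these copies, their sum was also taken, and it averaged 2.05 ± 0.638 TPM (n = 5, SD) for overexpression and 2.91 ± 0.601 TPM (n = 6, SD) for control libraries. The small heat shock gene Hspb1 had at most 1.88 TPM with overexpression and 1.16 TPM in controls, and was at 0 in 1 overexpression library and 4 controls. The highest sum of Hspa1a and Hspa1b in any library was 3.67 TPM, in control library 4.

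Inducible members that are also present at rest gave intervals that span 0. Dnajb1, the J-domain partner induced with HSP70, had 34.8, 25.9, 34.8, 31.0 and 29.7 TPM in overexpression libraries, against 24.3, 33.1, 31.2, 40.1, 27.9 and 31.0 TPM in controls. The controls spanned the whole overexpression range. Its log2 difference was 0.0072 (95% interval -0.29 to 0.30), and its sign turned in 4 of 11 fits with a library left out. Hsp90aa1, the inducible HSP90, averaged 281 ± 61.6 TPM in overexpression libraries (SD, n = 5), against 282 ± 41.8 TPM in control libraries (SD, n = 6), with a 95% interval of -0.33 to 0.30, and its sign turned positive with each of the 3 other scalings. The interval for Hsph1, whose product resets HSP70, was -0.14 to 0.56 on the log2 scale. Handling of tissue can raise immediate early genes together with heat shock genes. Fos averaged 8.53 ± 4.23 TPM (n = 5, SD) for overexpression and 6.56 ± 2.11 TPM (n = 6, SD) for control libraries, Jun 72.7 TPM with overexpression and 73.2 TPM in controls, and Egr1 17.6 TPM with overexpression and 20.5 TPM in controls, with 0 of 5 tested immediate early genes passing in limma and 1, Ier2, at an unadjusted p under 0.05.

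**Figure D2:**
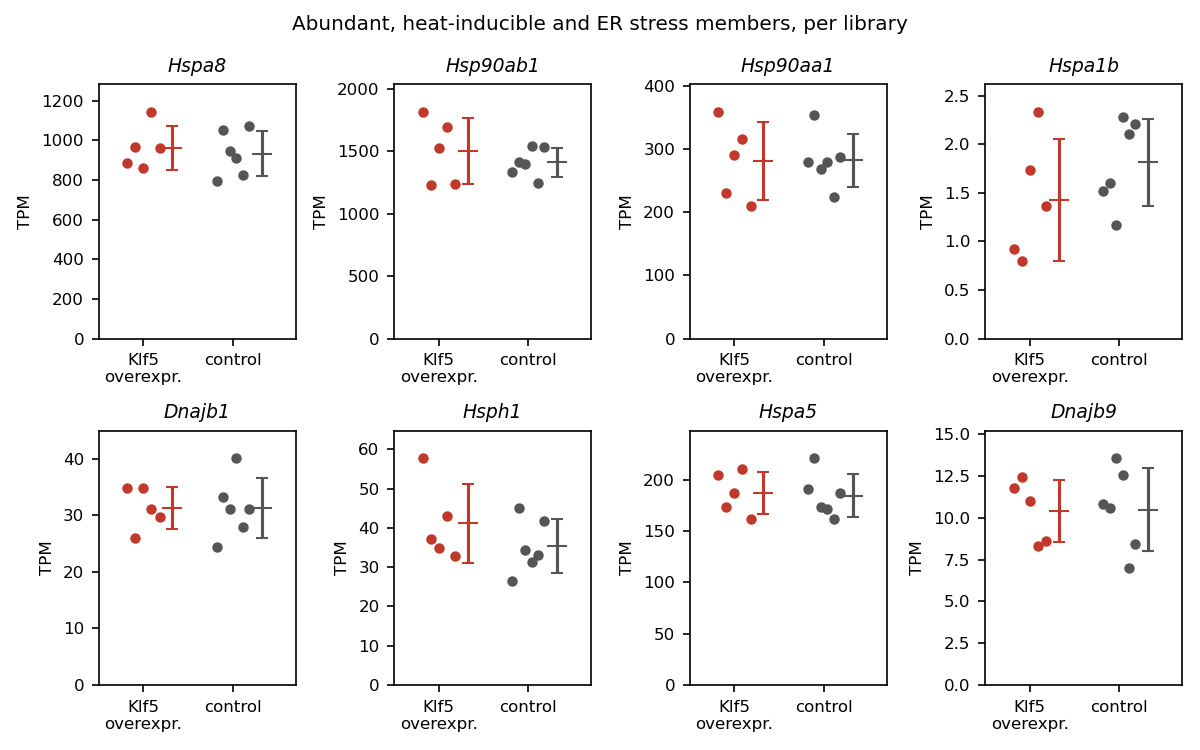
TPM of 8 abundant, heat-inducible or endoplasmic reticulum stress genes in each of 5 Klf5 overexpression libraries (red, left) and 6 control libraries (grey, right), with the mean and SD as a bar beside the points. The ranges of both groups overlap in all 8 panels, from Hsp90ab1, with means of 1500.5 TPM with overexpression and 1411 TPM in controls, down to Hspa1b, with 1.43 TPM and 1.81 TPM.

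The 3 HSP90 genes included the most abundant member. Hsp90ab1, the constitutive cytosolic HSP90, was the most abundant member in both groups, with 1816, 1231, 1525, 1692 and 1238 TPM in overexpression libraries and 1333, 1415, 1398, 1539.7, 1246 and 1535 TPM in controls. It made up 26.7% of the members' mean TPM with overexpression and 25.0% in controls, and Hspa8 added 17.1% with overexpression and 16.5% in controls. The order of the 9 most abundant members, from Hsp90ab1 through Hspa8, Hspd1, Hspa9, Hsp90aa1, Hspe1, Hsp90b1 and Hspa5 to Dnaja1, was identical in the means of both groups, although neighbours such as Hspd1 and Hspa9 differed by less than their SD. In controls these 9 held 73.8% of the members' summed TPM. On the log2 scale Hsp90ab1 differed by 0.074 ± 0.13 (SE; 95% interval -0.21 to 0.36).

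No chaperone of the endoplasmic reticulum passed the test. Hspa5 (BiP), the HSP70 of that compartment and a marker of its stress, had 204, 173, 186, 210.5 and 162 TPM with overexpression and 191, 221, 173, 171, 161 and 187 TPM in controls, with a 95% interval of -0.21 to 0.26 on the log2 scale. Dnajb9, a J-domain gene strongly induced by unfolded protein in that compartment, ranged over 8.31 to 12.4 TPM with overexpression and 6.98 to 13.6 TPM in controls. Hsp90b1, the HSP90 of the compartment, averaged 205 ± 45.4 TPM in overexpression libraries (SD, n = 5), against 201 ± 22.3 TPM in control libraries (SD, n = 6). Of 14 members placed there, 0 passed in limma and 0 had an unadjusted p under 0.05, beside 3.72% and 12.6% of all tested genes. Their median log2 fold change was 0.0045 beside -0.039 over all tested genes. The lowest of them was Dnajb12, an endoplasmic reticulum membrane J-domain protein, with 18.1 to 29.8 TPM with overexpression against 27.4 to 34.0 TPM in controls (log2 fold change -0.29, limma adjusted p = 0.405).

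No mitochondrial chaperone passed the test. Hspd1, the mitochondrial chaperonin, averaged 316 ± 55.4 TPM (n = 5, SD) for overexpression and 349 ± 43.4 TPM (n = 6, SD) for control libraries. Its lid Hspe1 had 202, 195, 250.2, 281 and 248 TPM with overexpression and 304, 330.2, 263, 234, 241 and 317 TPM in controls. The lower 2 overexpression libraries lay below all controls and the others within their range, for a log2 fold change of -0.26 with a 95% interval of -0.54 to 0.02 (limma adjusted p = 0.455). Hspa9, the mitochondrial HSP70, averaged 291 ± 55.4 TPM in overexpression libraries (SD, n = 5), against 347 ± 60.6 TPM in control libraries (SD, n = 6) (adjusted p = 0.579, limma). Of 10 mitochondrial members 7 lay below 0, near the share over all tested genes (7800 of 13549), with a median of -0.13. None was called in limma and 0 had an unadjusted p under 0.05, beside 3.72% and 12.6% of all tested genes. Hspd1 and Hspe1 start head to head and overlap on opposite strands, so their reads are not fully separable without strand.

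J-domain genes make up 45 of the 74 members and 38 of the 60 tested. Dnaja1, the most abundant, had 141 to 204 TPM with overexpression and 163 to 207 TPM in controls. The highest Dnajb gene was Dnajb6, which keeps polyglutamine proteins soluble, at 69.7 ± 17.6 TPM (n = 5, SD) for overexpression and 71.1 ± 10.9 TPM (n = 6, SD) for control libraries. Among the Dnajc genes, Dnajc9, a chaperone of newly made histones, led with 138 ± 32.9 TPM (n = 5) in overexpression and 147 ± 13.3 TPM (n = 6) in control libraries. None of 10 tested Dnajb genes passed in limma or had an unadjusted p under 0.05, beside 3.72% and 12.6% of all tested genes. Their log2 fold changes ran from -0.35 (Dnajb3, at most 5.68 TPM in any library) to 0.24 (Dnajb2). The 24 tested Dnajc genes ran from -0.25 (Dnajc27) to 0.73 (Dnajc12), also with none called and Dnajc12 alone at an unadjusted p under 0.05. Dnajc5, the cysteine string protein of synaptic vesicles, averaged 65.1 TPM with overexpression and 68.8 TPM in controls, whereas Dnajc6 (auxilin), which recruits HSP70 to uncoat clathrin vesicles, stayed below 0.1 TPM except for 0.946 TPM in control library 5.

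**Figure D3:**
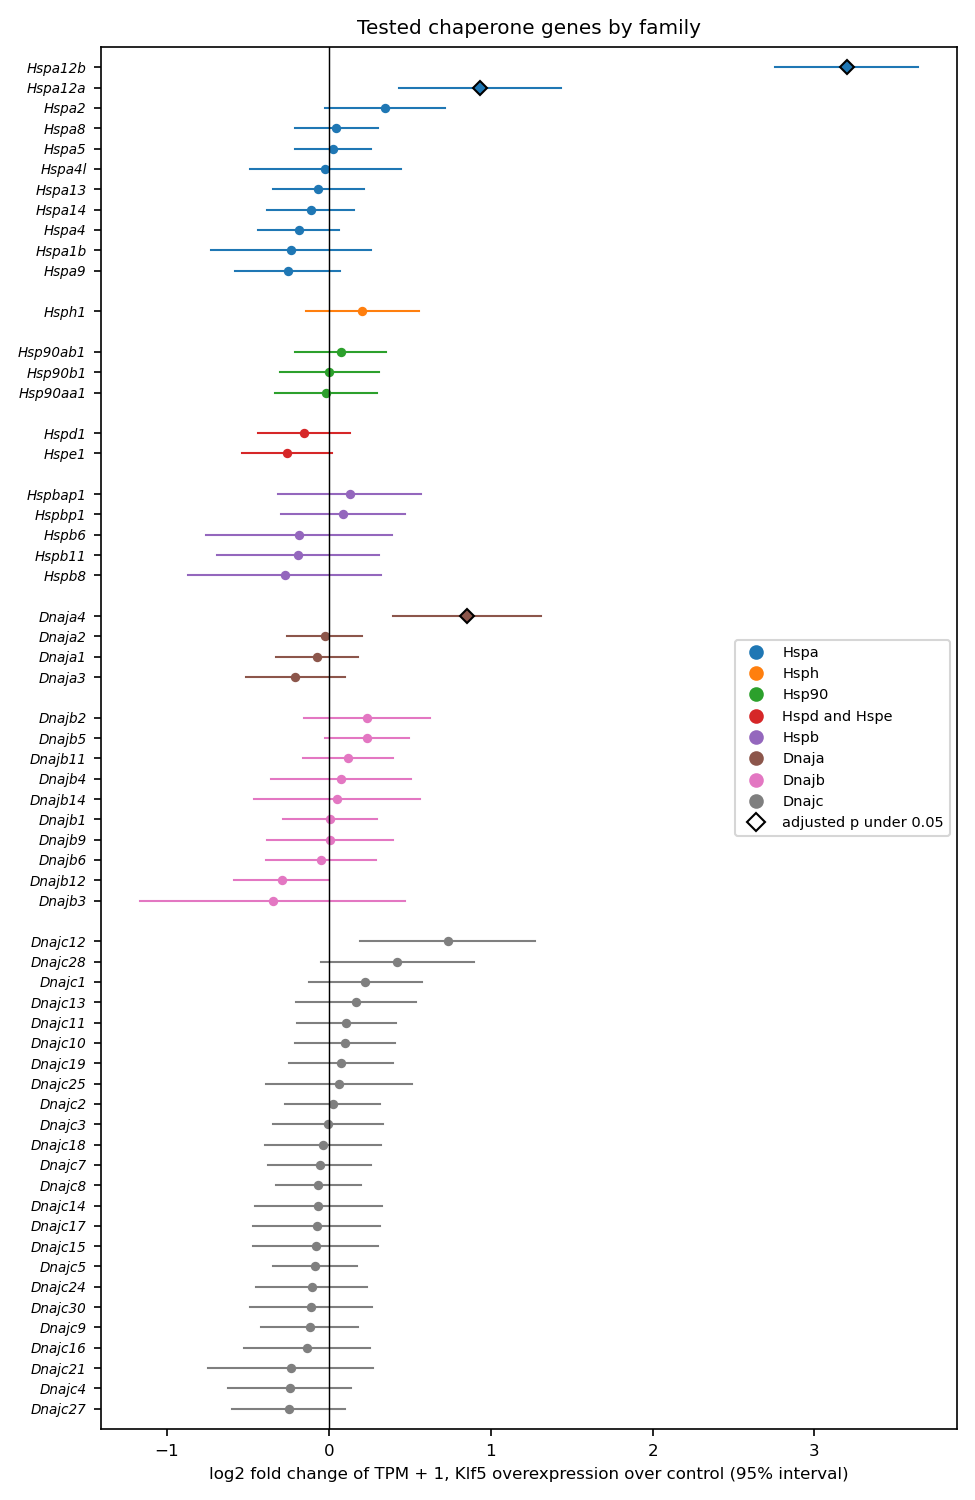
Log2 fold change of TPM + 1 (x axis, Klf5 overexpression over control) with its 95% interval for each of the 60 tested chaperone genes, coloured and grouped by family; diamonds mark an adjusted p under 0.05. Hspa12b stands alone at 3.20, Hspa12a at 0.94 and Dnaja4 at 0.85 follow, and the other 57 lie between -0.35 and 0.73.

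The small heat shock prefix mixes several kinds of gene. The most abundant was Hspbp1, an exchange factor of HSP70 and no small heat shock protein, at 35.1 ± 10.2 TPM in overexpression libraries (SD, n = 5), against 32.6 ± 6.75 TPM in control libraries (SD, n = 6). Hspb11, at 8.01 TPM with overexpression and 9.24 TPM in controls, encodes a part of the intraflagellar transport complex. The true small heat shock genes were low: Hspb6 had 4.02 to 6.58 TPM with overexpression and 1.91 to 8.42 TPM in controls, and Hspb8 had 0 to 1.39 TPM with overexpression and 0.324 to 1.76 TPM in controls. None of the 5 tested genes of this prefix passed in limma, and 0 had an unadjusted p under 0.05, beside 3.72% and 12.6% of all tested genes. The 14 members below the filter were Hspa1a, Hspa1l, Hspb1, Hspb2, Hspb3, Hspb7, Hspb9, Dnajb7, Dnajb8, Dnajb13, Dnajc5b, Dnajc5g, Dnajc6 and Dnajc22. Hspb7, Hspb9, Dnajb8 and Dnajb13 were at 0 in all 11 libraries. Several of these are known from muscle or testis. Hspb2 had 0 to 1.40 TPM with overexpression and was listed at 0 in all controls. Hspb3, Dnajb7, Dnajc5b, Dnajc5g and Dnajc22 reached at most 0.483 TPM with overexpression and 0.971 TPM in controls. In a fit without a filter none of the other 10 passed in limma, and the smallest p was that of Hspa1l (adjusted p = 0.316), with 0 to 0.474 TPM with overexpression and 0 to 0.153 TPM in controls.

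The 95% interval of the log2 fold change lay within -0.5 and 0.5 for 33 of 60 tested genes, and within -1 and 1 for 55. The median SE was 0.16 for the members and 0.18 for all tested genes. The members' log2 fold changes had a median of -0.024 beside -0.039 over all tested genes, and 27 of 60 lay above 0, beside 42.4% of all genes. Summed over the 74 members, TPM was 6371, 4949, 5599, 6383 and 4819.5 in overexpression libraries and 5423, 6113, 5543, 5715, 4936 and 6188 in controls. Overexpression libraries 2 and 5 were low for 44 and 56 of the 60 tested members relative to their own group mean. Rows resembling ribosomal RNA took 30.2% and 29.2% of their listed total, beside 12.4 to 21.6% in the other overexpression libraries. Controls had 19.3 to 31.2%. Control libraries 5, 1 and 3 were low for 42, 37 and 35 of the 60, with 31.2%, 29.9% and 23.9% of such rows. With trimmed-mean scaling the sums became 5673 ± 269 (SD, n = 5) with overexpression and 5573 ± 282 (SD, n = 6) in controls. How far these rows set the members' spread was not tested.

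Lists of genes that work with the chaperones, drawn from textbook knowledge, held no called gene. Over all tested genes 3.72% were called and 12.6% had an unadjusted p under 0.05. For lists this short, 0 called is near that share. Of 13 tested heat shock factor genes and targets outside the members, 0 passed in limma (1 at an unadjusted p under 0.05) and the median log2 fold change was 0.019. Bag3, an HSP70 partner that sends clients to autophagy, had 20.2, 17.9, 13.8, 13.8 and 8.12 TPM with overexpression and 12.9, 9.00, 7.53, 7.13, 11.1 and 8.31 TPM in controls. All overexpression libraries but library 5 exceeded every control, and the log2 difference of 0.58 ± 0.22 missed the threshold (limma adjusted p = 0.206). The adjusted p was 0.0364 without overexpression library 5 and 0.0445 with array weights. Hsf1, the master heat shock factor, averaged 19.8 ± 2.93 TPM (n = 5, SD) for overexpression and 17.0 ± 5.64 TPM (n = 6, SD) for control libraries.

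The lists below stand beside the same shares over all tested genes, 3.72% called and 12.6% at an unadjusted p under 0.05. Co-chaperones of HSP70 and HSP90 had 0 of 23 members called in limma (0 at an unadjusted p under 0.05), with a median of -0.011. Fkbp5, a glucocorticoid-responsive HSP90 partner, had the smallest p, at 31.9 ± 8.59 TPM in overexpression libraries (SD, n = 5), against 24.1 ± 3.20 TPM in control libraries (SD, n = 6) (limma adjusted p = 0.401). Of 20 endoplasmic reticulum folding and stress genes 0 passed in limma (2 at an unadjusted p under 0.05). Xbp1, a transcription factor of the unfolded protein response, had 24.1, 21.9, 22.2, 28.8 and 18.3 TPM with overexpression and 12.2, 22.2, 11.1, 17.8, 10.3 and 17.8 TPM in controls, overlapping through control library 2. The log2 difference was 0.60 ± 0.19, and its limma adjusted p of 0.124 became 0.0318 to 0.0330 with the other scalings and 0.0457 without control library 2. Ddit3, a death-promoting factor of the same response and chosen after its values were seen, averaged 11.05 TPM with overexpression and 16.2 TPM in controls (adjusted p = 0.266, limma). The TRiC chaperonin and prefoldin list had 0 of 14 called in limma, with Pfdn1 at 68.2 TPM with overexpression and 79.3 TPM in controls (adjusted p = 0.622). It also had 0 at an unadjusted p under 0.05.

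**Figure D4:**
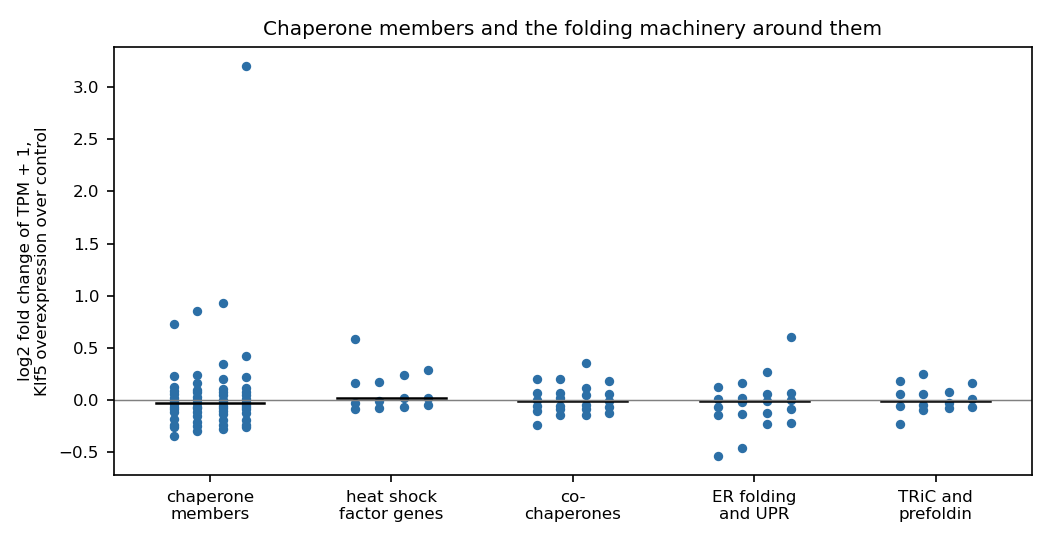
Log2 fold change of TPM + 1 (y axis, Klf5 overexpression over control) of each tested gene among the 60 chaperone members and 4 lists of genes that work with them, with list medians as black bars; horizontal spread within a list has no meaning. Medians lie between -0.024 and 0.019, and Hspa12b at 3.20 is the only gene of the 5 groups above 1.

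The libraries matched their labels. Klf5 itself was at 53.6 to 93.0 TPM with overexpression and 0.371 to 1.29 TPM in controls. Neural progenitor markers such as Fabp7 and Vim were abundant, with 14 markers summing to 4434 to 6587 TPM with overexpression and 5602 to 8784 TPM in controls. Of these, Vim and Hes1 passed as higher and Msi1 and Slc1a3 as lower (limma), where 3.72% of all tested genes passed. Of the 14 markers, 10 lay below 0, beside 7800 of 13549 tested genes. An unadjusted p under 0.05 was found for 7 of the 14, beside 12.6% of all tested genes. Fabp7 averaged 2105 TPM with overexpression and 3596 TPM in controls (limma adjusted p = 0.069). The highest sum in any library was 3.14 TPM for microglia and macrophage markers, 1.92 TPM for erythroid markers, 14.4 TPM for muscle, mural and mesenchymal markers and 17.5 TPM for ciliated and choroid plexus markers. In the mural list Myl9 passed as lower, at 0.554 TPM with overexpression and 2.90 TPM in controls (limma adjusted p = 0.0454). Des, which was below the filter, had 0.798 to 1.89 TPM with overexpression and 0 to 0.695 TPM in controls, without overlap. Listed values summed to 730832 to 821967 TPM per overexpression library and 814208 to 846780 TPM per control library. The part of this difference in the results was not tested.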

How the data were processed

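TPM values were used as deposited by the authors in 1 table with a column per library. Per the submitters' processing notes, HISAT2, StringTie, HTSeq and DESeq2 and build GRCm38.p5 were involved, with no versions, order or roles. The annotation release and strand setting are unknown here. Per the labels' protocols 2 library kits were used, and which library had which is not stated, so no batch could be separated. TPM keeps no depth, so the depth is unknown and only the libraries' spread gives an error. Symbols came from a separate gene list (53255 of 53453 rows matched) and coordinates from GENCODE M21.

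Testing took genes that reached 1 TPM in 5 or more libraries and was done on log2(TPM + 1), a pseudocount of 1, with limma 3.58.1 (R 4.3.3, variance trend, two-sided, Benjamini-Hochberg at 0.05). Folds of low genes are understated on this scale. The test was checked on simulated data drawn independently for each gene, without the shifts that a library can share across genes. Exact permutation tests and counts used Python 3.11.15. The members and lists were chosen with earlier results of these data known. Named genes are called members, the most abundant and the smallest-p member of each family, 8 inducible members and the smallest-p gene of each list; others were added after their values were seen. Other settings tried were quantile normalization, trimmed-mean scaling, a pseudocount of 0.1, a filter of 5 TPM and none at all, removal of ribosomal RNA-like and mitochondrial rows, array weights, a replicate block and leaving out each library. Protein sequences were not used here, and 1 list of related genes is not reported here.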

Additional observations from a re-analysis of the deposited data

How the results depend on the processing

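Hspa12b was called in each of the 19 other fits. The number of higher members was 1 with a pseudocount of 0.1, without a filter, with a filter of 5 TPM (which removes Hspa12a and Dnaja4) and with the replicate block, and 1 to 2 with each library left out (1 without overexpression library 1 or 3 or control library 2, 3, 5 or 6); the number of lower members was 0 throughout. Whether shared replicate numbers pair these libraries is not known here. Only 1 of 5 same-numbered pairs had deviations correlated above 0.1 (0.304 for number 1). Number 1 was also the only one whose best-correlated control shared its number. Such correlations cannot settle the pairing. The block kept the direction of the 3 called members, but Hspa12a and Dnaja4 were no longer called (limma adjusted p of 0.101 for Hspa12a and 0.105 for Dnaja4). Over all genes the number of lower calls was 95 without a filter, 311 with quantile normalization, 301 with trimmed-mean scaling, 301 without ribosomal RNA-like and mitochondrial rows, and 123 to 213 with each library left out. Higher calls, 310 in the main fit, were 214 with a filter of 5 TPM and 461 without ribosomal RNA-like and mitochondrial rows. The cause was not tested. The shares of all tested genes given beside the members are those of the main fit. Medians of families, compartments and lists moved by less than the spread between libraries in all fits. Signs turned for genes near 0. Dnajb6 was 0.0061 with quantile normalization, Dnajb9 -0.075 with array weights and -0.045 with the replicate block, and Hsp90aa1 0.012 with quantile normalization, 0.020 with trimmed-mean scaling, 0.020 without ribosomal RNA-like and mitochondrial rows and 0.054 with array weights. With each library left out, log2 fold changes ranged from -0.13 to 0.00076 for Dnaja1, -0.060 to 0.080 for Dnajb1, -0.17 to 0.040 for Dnajb6, -0.093 to 0.080 for Dnajb9, -0.11 to 0.080 for Hsp90aa1, -0.018 to 0.079 for Hspa5, -0.017 to 0.089 for Hspa8 and -0.063 to 0.19 for Hspbp1. Since depth is unknown, small differences of members near 1 TPM cannot be bounded by counting error.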
